A study of Caenorhabditis elegans with 4 samples.

Results

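Between the H3K36me3 peaks of L3 worms lay 397 stretches of 50 kb or more in which neither of 2 peak lists had a peak. The members were chosen by the measured peak positions alone, by joining the peaks of both lists into 5978 intervals and by keeping the gaps of at least 50 kb between neighbours on the same chromosome, chromosome ends left out. The 397 stretches were 6.66% of all 5965 gaps. They held 35.8 Mb, which was 44.5% of the length of all gaps and 35.7% of a genome span of 100.1 Mb.

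The lists come from 2 chromatin immunoprecipitations (ChIP-seq) of whole Caenorhabditis elegans larvae of the N2 strain, the wild-type laboratory strain, at the L3 stage, with no treatment named. The same Abcam antibody, AB9050, was used for both, which the labels number 1 and 7. The labels pair each immunoprecipitation with its own input DNA from N2 worms at the same stage, and the 2 inputs were not analysed here. Separate cultures are not mentioned in the labels, so an SD over the 2 lists may reflect technical spread alone. Whole larvae mix somatic tissues with a growing germ line, and a peak list cannot separate them.

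H3K36me3 is histone H3 with 3 methyl groups on lysine 36. It is laid down over the bodies of genes as they are transcribed, in C. elegans by the enzyme MET-1, while MES-4 maintains it on genes that were active in the germ line. Genes in the centres of the worm's autosomes are enriched for conserved and broadly used functions, whereas the arms hold more repeats and more members of large, fast-changing gene families such as chemoreceptors. The X chromosome is dosage compensated in the soma and largely silent in the germ line.

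Because the peaks themselves chose the stretches, the values below describe them and no test was made. A base in a stretch is one where no enrichment passed the authors' threshold, which does not show that the mark is absent. Positions are in WormBase WS190. No genome sequence or gene annotation of that build was used here, so neither bases nor genes within the stretches are given.

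The minimum of 50 kb made each stretch many times longer than the usual gap. The median length was 74.7 kb, with an interquartile range of 59.3 to 101.7 kb, while the median of all gaps was 2986 bp. Of the 397 stretches, 199 measured 50 to 75 kb, 89 measured 75 to 100 kb, 94 measured 100 to 200 kb and 15 were 200 kb or longer. The 109 of at least 100 kb held 45.1% of the total length. The length was spread over many stretches rather than a few giants, since the 10 longest held 8.49% of it and it took 128 to reach 50%.

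Lengths ran on without a break across the threshold of 50 kb. The 3 shortest measured 50218 bp (chromosome IV 12730389 to 12780606), 50589 bp (X 15443915 to 15494503) and 50597 bp (V 13499591 to 13550187). The 3 longest gaps left out measured 49986 bp (X 6448308 to 6498293), 49931 bp (III 7774186 to 7824116) and 49799 bp (IV 8311102 to 8360900). There were 72 gaps of 45 to 50 kb and 52 of 50 to 55 kb.

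**Figure D1:**
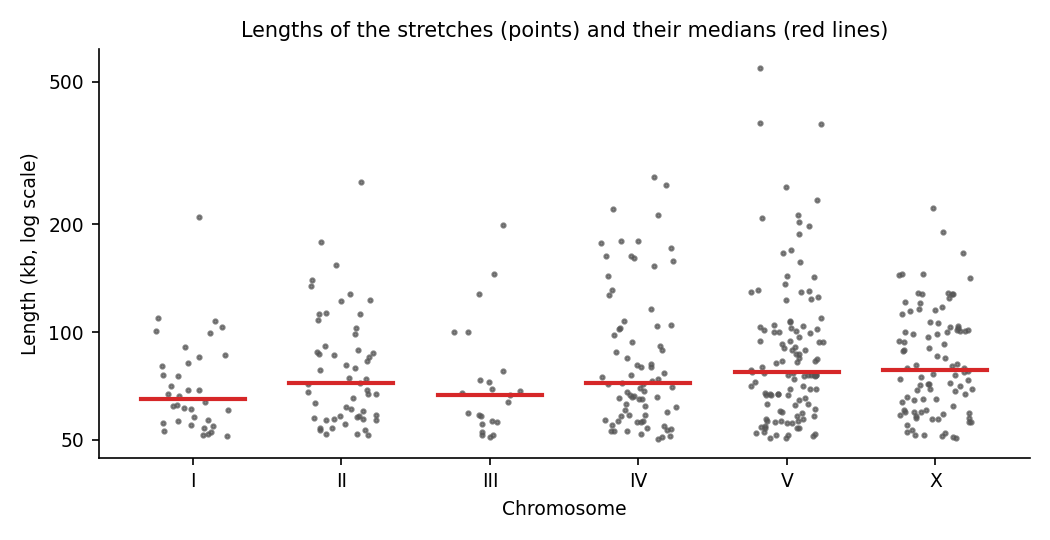
Length of each of the 397 stretches in kb on a log scale, by chromosome, with the median of each chromosome as a red line. Medians lie between 65.1 kb on chromosome I and 78.6 kb on the X, and the 3 longest stretches, at 380.8 to 547.2 kb, all lie on chromosome V.

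Chromosome V and the X had the most stretches, and chromosome III the fewest. Chromosome V had 113 stretches, or 5.41 per Mb, and they made up 54.2% of its length. The X had 94, or 5.33 per Mb, with 46.8% of its length. Chromosome IV followed with 76 stretches over 40.7% of its length and chromosome II with 55 over 30.4%. Chromosome I had 36 over 17.7%, and chromosome III had 23 over 12.9%. Chromosome V alone held 31.7% of the total stretch length on 20.9% of the genome.

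The order of the chromosomes was the same in each list measured alone. Gaps of 50 kb or more took up 57.3% ± 0.432 of chromosome V (SD, n = 2 lists), 50.04% ± 0.0658 of the X, 43.8% ± 0.926 of chromosome IV, 31.96% ± 0.458 of chromosome II, 19.2% ± 1.12 of chromosome I and 15.1% ± 2.26 of chromosome III. Neighbours in this order lay further apart than the larger of their SDs. The place of chromosome V above the X depended on the peak threshold. With the upper 50% of each list by score, the stretches took up 69.9% of chromosome V and 74.6% of the X.

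The gaps of chromosome V and the X differed in their spacing. On chromosome V the median of all gaps was 4368 bp, and 13.2% of the 857 gaps were 50 kb or longer. On the X, where peaks were spaced more widely, the median gap was 13734 bp and 14.9% of the 630 gaps were that long. Stretches of 200 kb or more numbered 8 on chromosome V and 1 on the X. The stretches of 100 to 200 kb numbered 26 on chromosome V and 30 on the X.

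Outside the stretches, chromosome V was covered more densely than the X. Peaks covered 24.4% of the rest of chromosome V in replicate 1 and 23.3% in replicate 7. They covered 17.1% and 17.2% of the rest of the X in the same lists. The rest of chromosome IV had 28.6% and 27.2% under peaks, and the rest of chromosome I had 34.9% and 32.6%. Over whole chromosomes, stretches included, the cover was 11.2% and 10.7% on chromosome V and 9.12% and 9.17% on the X.

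**Figure D2:**
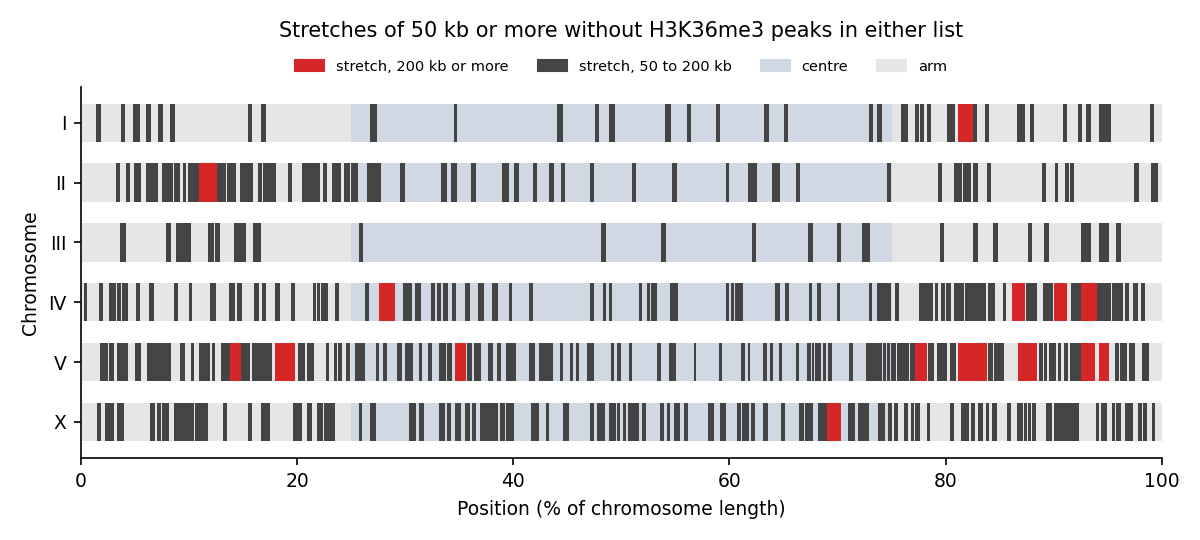
Position of the stretches along the 6 chromosomes, as a percentage of chromosome length, with stretches of 200 kb or more in red and the others in dark grey over the centre (middle 50%) and the arms. They crowd the arms of chromosome V, the right arm of IV and the left arm of II, are spread along the X, and are sparse in the centre of III.

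On the autosomes the stretches filled more of the arms than of the centres, the centre being the middle 50% of a chromosome. Of the 303 autosomal stretches, 180 had their midpoint in an arm and 123 in a centre. They made up 43.5% of the length of autosome arms and 23.3% of autosome centres. The share was higher in the arms combined than in the centre on each of the 5 autosomes, from 19.1% against 6.75% on chromosome III to 68.4% against 40.1% on chromosome V. Stretches with a midpoint in an arm had a median length of 76.0 kb, against 67.2 kb in the centres.

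The 2 arms of an autosome were often unlike. On chromosome IV stretches filled 68.0% of the right arm, known for its many piRNA genes, and 35.1% of the left arm. On chromosome II the left arm was the fuller, with 60.1% of the left arm and 21.1% of the right arm, next to 20.2% of the centre. Chromosome V had high shares in both arms, at 63.6% on the left and 73.2% on the right. Chromosome I had 15.6% of the left arm and 33.6% of the right arm in stretches, and chromosome III had 21.0% and 17.3%.

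The X did not show this contrast. Stretches filled 46.4% of its arms and 47.2% of its centre, with 42.6% in the left arm and 50.2% in the right arm. They had a median length of 77.6 kb in the arms and 82.8 kb in the centre. Each of the 18 windows of 1 Mb on the X (the last one shorter) had at least 26.6% of its length in stretches, and the highest share was 70.9%. On chromosome V the windows ranged from 18.4 to 87.9%. No stretch reached into 2 windows of chromosome III and 1 full window of chromosome I, nor into the last window of chromosome I, which is only 54343 bp long.

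**Figure D3:**
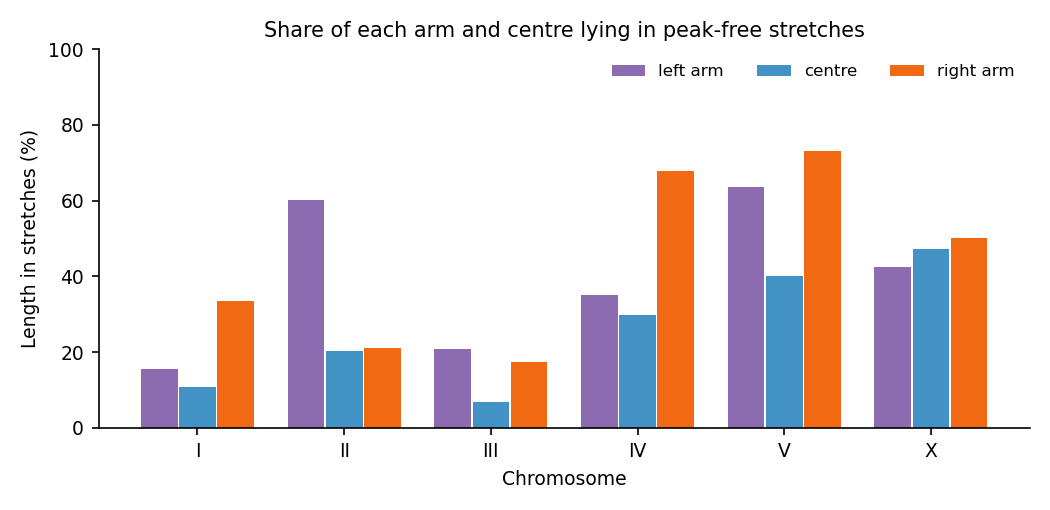
Percentage of the length of each left arm, centre and right arm that lay in stretches, by chromosome. The highest bars are the right arms of V (73.2%) and IV (68.0%) and the left arms of V (63.6%) and II (60.1%), while the 3 bars of the X lie between 42.6 and 50.2%.

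The longest stretch lay far out on chromosome V, in its right arm (16967901 to 17515122), and measured 547.2 kb in replicate 1 and 549.6 kb in replicate 7. The next, on the left arm of V (3759211 to 4144107), measured 388.2 kb in replicate 1 and 384.9 kb in replicate 7. The third, again on the right arm of V (18114838 to 18495651), measured 380.9 and 382.1 kb in the same lists. These 3 had nearly the same length in both lists.

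On chromosome IV the longest stretch lay in the left part of the centre (4812290 to 5083274) and measured 271.6 kb in replicate 1 and 271.0 kb in replicate 7. The right arm of IV held the stretch at 16169457 to 16427045, which measured 421.0 kb in replicate 1 and 257.6 kb in replicate 7. A single replicate 7 peak of 1709 bp ended it on the left. Its score lay at percentile 24.2, a percentile being the rank of a score within its own list as a percentage. Also on this arm, the stretch at 15722007 to 15942445 measured 260.2 kb in replicate 1 and 220.4 kb in replicate 7.

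The longest stretch of chromosome II (1666155 to 1929339, left arm) measured 387.7 kb in replicate 1 and 263.2 kb in replicate 7. Here too 1 narrow peak of replicate 7 divided a longer gap, a peak of 1193 bp whose score lay at percentile 12.6. The remaining stretches among the 10 longest were V 19349014 to 19603633, at 266.4 kb in replicate 1 and 258.2 kb in replicate 7, V 16122927 to 16357501, at 234.6 and 234.7 kb, and X 12171582 to 12394229, at 222.7 and 223.0 kb.

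On the remaining chromosomes the longest stretches were shorter. That of chromosome I (12215351 to 12424635, right arm) measured 209.6 kb in replicate 1 and 209.3 kb in replicate 7. That of chromosome III (1206594 to 1405940, left arm) measured 199.5 kb in both.

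The lists bounded most stretches at nearly the same place. Replicate 1 alone had 410 gaps of 50 kb or more, with a total of 37.7 Mb, and replicate 7 alone had 423, with 38.9 Mb, a mean of 416.5 ± 9.19 gaps (SD, n = 2). Of the 397 stretches, 314 (79.1%) were at most 10% longer in each list than in the union, and 254 were at most 1000 bp longer in both. Since the union can only shorten a gap, the list lengths are never below the union length. A length of at least 1.5 times that of the union was found for 15 stretches in replicate 1 and for 16 in replicate 7.

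**Figure D4:**
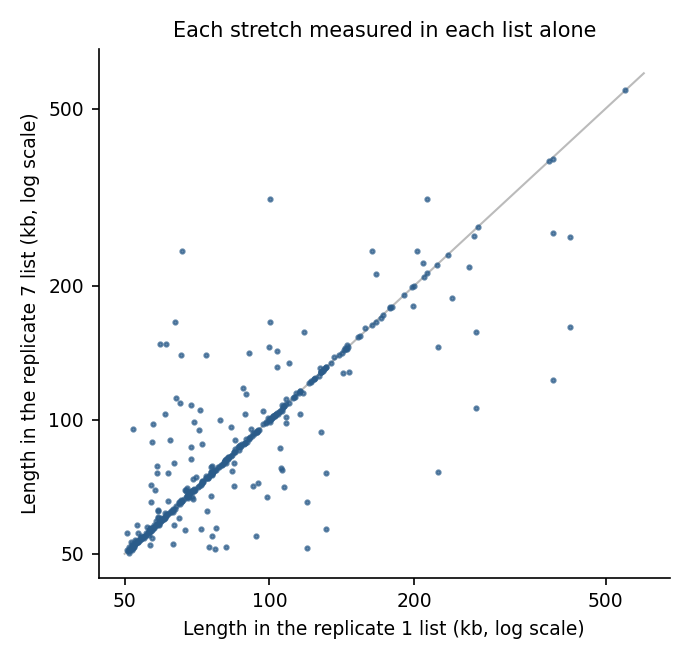
Length of each stretch as measured in the replicate 1 list (x axis) and in the replicate 7 list (y axis), in kb on log scales, with the line of equality in grey. Most of the 397 points lie on the line, and those away from it are gaps that a peak of 1 list divides or shortens.

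Long gaps seen in 1 list and lost in the union were mostly divided by weak peaks. In replicate 1, 19 gaps of 50 kb or more (50.2 to 77.7 kb) held no stretch of the union. A whole replicate 7 peak lay inside 17 of them, with a median score percentile of 9.58 for the highest peak in each. In replicate 7 there were 31 such gaps (50.3 to 91.7 kb), of which 30 held a whole replicate 1 peak, with a median percentile of 13.3. The scores inside were not all low, and reached percentile 47.3 in the gaps of replicate 1 and 54.1 in those of replicate 7. Another 6 gaps of replicate 1 and 5 of replicate 7 were each divided into 2 stretches. The 3 gaps that lost most were the ones on chromosomes IV and II described above and V 1478324 to 1746702, of 268.4 kb in replicate 1, where 2 replicate 7 peaks left 157.2 kb as the longest gap.

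Stretches often followed each other with little between them. Of the 391 pairs of neighbouring stretches, 160 (40.9%) lay under 50 kb apart and 78 under 10 kb. Taking stretches under 50 kb apart as a run, 232 of the 397 (58.4%) belonged to 72 runs of 2 or more, and 165 stood alone. The share in runs was 71.7% on chromosome V, 70.2% on the X, 61.8% on chromosome IV, 47.3% on chromosome II, 22.2% on chromosome I and 17.4% on chromosome III. It follows the order of the number of stretches per Mb, and no chance level is given.

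The largest run spanned the boundary between the centre and the right arm of V (15191203 to 16501204), which lies at 15676256. It had 11 stretches over 1310 kb, of which 93.6% was stretch, with 23 peak intervals in between that covered 3.63% of the run in replicate 1 and 3.89% in replicate 7. A run of 10 stretches followed within the right arm of V (18114838 to 19603633, 1489 kb, 83.6% stretch), and another of 10 on the left arm of V (2707246 to 3698054, 990.8 kb, 92.8% stretch). Outside chromosome V the largest were a run of 8 on the left arm of chromosome II (1152593 to 2198880, 1046 kb, 91.0% stretch) and runs of 6 on the right arm of chromosome IV (16006169 to 16935018, 928.9 kb, 94.6% stretch) and in the centre of the X (6502505 to 7065983, 563.5 kb, 88.7% stretch).

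In windows of 1 Mb, the highest shares of length in stretches were 87.9% on chromosome IV at 16 to 17 Mb, 87.9% on chromosome V at 3 to 4 Mb and 85.2% on chromosome II at 1 to 2 Mb. On chromosome V the 5 windows from 15 to 20 Mb had between 70.8 and 81.7% of their length in stretches. On chromosome IV the 3 windows from 14 to 17 Mb had between 72.3 and 87.9%. In all, 26 of 103 windows, the last of each chromosome being shorter, had at least 50% in stretches, of which 12 were on chromosome V, 6 on the X, 5 on chromosome IV and 3 on chromosome II.

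The closest neighbours were kept apart by 1 narrow peak interval each. The smallest separation was 928 bp, between stretches of 212.9 and 100.1 kb on chromosome V (2877168 to 3090019 and 3090948 to 3191000), and the peak there was in replicate 1 alone. The next were 983 bp on the X (3464078 to 3537693 and 3538677 to 3603941) and 1050 bp on chromosome IV (13538833 to 13701941 and 13702992 to 13768819), both again in replicate 1 alone. Those at 1148 bp on chromosome V (16027767 to 16121778 and 16122927 to 16357501) and 1180 bp on chromosome III (1625739 to 1703654 and 1704835 to 1774406) were peaks of both lists. In all, 52 peak intervals had a stretch on each side, 19 of them on chromosome V and 14 on the X. Of these isolated intervals, 44 of 52 (84.6%) had peaks in both lists, close to the 84.2% of all intervals. Their median width was 2162 bp, against 2477 bp for all intervals.

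Isolated intervals were not all weak. The one at IV 14464254 to 14468933, 4680 bp wide, and the one at X 10772732 to 10782562, 9831 bp wide, scored 3100 in both lists. Many peaks tie at this value, though some score higher. Scores of 3100 or more were found in 5 isolated intervals in replicate 1 (10.4%) and 6 in replicate 7 (12.5%). Among all intervals with a peak in the list the shares were 17.6% and 15.3%, not matched by chromosome. Chromosome V and the X held 19 and 14 of the isolated intervals. Among intervals there that bordered no stretch, the shares were 12.3% and 12.2% on chromosome V and 8.28% and 10.5% on the X. The median score percentile of the isolated intervals, each taken by its highest peak, was 44.0 in replicate 1 and 46.6 in replicate 7.

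Taken over all chromosomes, the peaks bordering stretches were only a little narrower and lower-scoring than the other peaks. A total of 742 intervals bordered a stretch and 5236 did not. In width the border intervals had a median of 2317 bp, and the others 2502 bp. The median score percentile of the highest peak in a border interval was 47.2 in replicate 1 and 51.0 in replicate 7. In the other intervals it was 51.3 in replicate 1 and 54.0 in replicate 7. Scores of 3100 or more were found in 13.9% of border intervals and 18.2% of the others in replicate 1, and in 12.2% and 15.8% in replicate 7.

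This difference was uneven between chromosomes, and the pooled values mix them in unlike shares. Chromosome V and the X held 207 and 174 of the 742 border intervals, but 651 and 457 of the 5236 others. How much of the pooled difference follows from this was not tested. On chromosome II the border intervals had a median percentile of 38.2 in replicate 1 and 43.7 in replicate 7, against 59.8 and 62.5 for the other intervals. On chromosome III the border values were 39.7 and 43.9, and the others 54.0 and 56.6. On chromosome I the borders were the higher, at 58.6 and 58.1 against 50.4 and 52.4. They were also slightly higher on the X, at 44.9 and 52.5 against 44.3 and 48.996. On chromosome IV they were slightly lower, at 49.5 and 49.7 against 50.1 and 51.2. On chromosome V both kinds lay within 1 percentile in each list, at 48.2 and 50.7 for borders and 48.8 and 51.4 for the others. In replicate 1, scores of 3100 or more were commoner at borders on chromosomes I (21.0% against 18.3%) and V (15.8% against 12.3%). The same held on the X (10.4% against 8.28%), and they were rarer at borders on II, III and IV. In replicate 7 they were commoner at borders on V alone (13.2% against 12.2%). Border intervals were wider than the others on I (2818 against 2503 bp) and the X (2413 against 2321 bp), and narrower elsewhere.

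Most borders were found in both lists. Of the 742, 611 (82.3%) held peaks of both, 78 held peaks of replicate 1 alone and 53 of replicate 7 alone. The same 2 lists set the borders, so no error is given for this share. Of the other intervals, 84.5% held peaks of both lists. Broad intervals of 10 kb or more also stood at the edge of stretches. There were 17 among the borders (2.29%) and 156 among the others (2.98%), so that their share was slightly lower among the borders. By chromosome, broad intervals numbered 6 among 207 borders and 4 among 651 others on V, 1 among 174 and 4 among 457 on the X, 1 among 144 and 22 among 854 on IV, 2 among 44 and 44 among 1171 on III, 3 among 103 and 33 among 840 on II, and 4 among 70 and 49 among 1263 on I. The widest border was 16.7 kb on chromosome I (11035355 to 11052087), followed by 16.1 kb on chromosome V (7571713 to 7587805).

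The highest-scoring borders were II 10157484 to 10161398, with 2157 in replicate 1 and 3204 in replicate 7, I 12487017 to 12496827, with 3204 and 1394, and X 14480532 to 14484770, with 3171 and 2950. The lowest were peaks of replicate 1 alone, at V 13329407 to 13330480 (score 51.2), IV 6294559 to 6295288 (51.7) and V 1916843 to 1917669 (51.7).

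Stretches of 200 kb or more had lower-scoring borders than shorter ones. Of their 30 sides, 17 (56.7%) ended at an interval present in both lists. At 15 sides (50%) the best score percentile of the border in either list was in the lowest 20%. Over all 30 sides the median of this best percentile was 19.3 and the median border width 1435 bp. For stretches of 50 to 75 kb, 75 to 100 kb and 100 to 200 kb, the median percentiles were 49.4, 54.7 and 51.6, and 82.4%, 87.1% and 82.4% of the sides had a border present in both lists. Borders in the lowest 20% stood at 20.9%, 20.8% and 19.7% of the sides in the same classes. The number of stretches of 200 kb or more is small, at 15.

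Away from the edges, peak cover came down to near the level of the chromosome within a short distance, and further out lay slightly below it. In the first 10 kb from the edge, peaks covered 42.6% in replicate 1 and 41.4% in replicate 7, a level set by the choice of edges, since each begins with a peak. From 10 to 20 kb the cover was 19.4% and 18.0%, and from 20 to 50 kb it was 15.9% and 14.9%. The cover of the chromosomes on which the stretches lay, weighted by their number, was 15.7% and 15.03%. From 50 to 100 kb of the edges the cover was 14.9% and 14.0%, with 44.6% of that distance lying in other stretches. It was 14.6% and 13.8% from 100 to 200 kb, and 14.8% and 14.0% from 200 to 500 kb. On chromosomes I, II and III the cover from 100 to 200 kb was 21.9% and 20.2%, against 24.7% and 23.4% for those chromosomes. On chromosome V it was 11.1% and 10.7%, against 11.2% and 10.7%.

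Around the 15 stretches of 200 kb or more the surroundings were poorer in peaks than their chromosomes as a whole. From 50 to 100 kb of their edges the cover was 9.40% in replicate 1 and 8.66% in replicate 7, where 69.1% of the length lay in other stretches. Their chromosomes had 14.4% and 13.7%. From 200 to 500 kb of the edges the cover was 11.1% and 10.3%. Arms that held several of these stretches had low cover as a whole, a value that counts the stretches themselves as uncovered. It was 8.99% and 7.40% in the right arm of V and 9.66% and 9.20% in its left arm. The right arm of IV had 10.3% and 9.61%. Other areas with such a stretch had from 8.85% and 8.88% (centre of the X) to 24.5% and 22.2% (right arm of I). The arms of the X, with no stretch of 200 kb or more, had 9.39% and 9.47%. With all stretches left out, peaks covered 33.5% and 27.6% of the right arm of V and 26.5% and 25.3% of its left arm. For the right arm of IV this was 32.1% and 30.0%, and for the whole genome 28.5% and 27.1%.

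**Figure D5:**
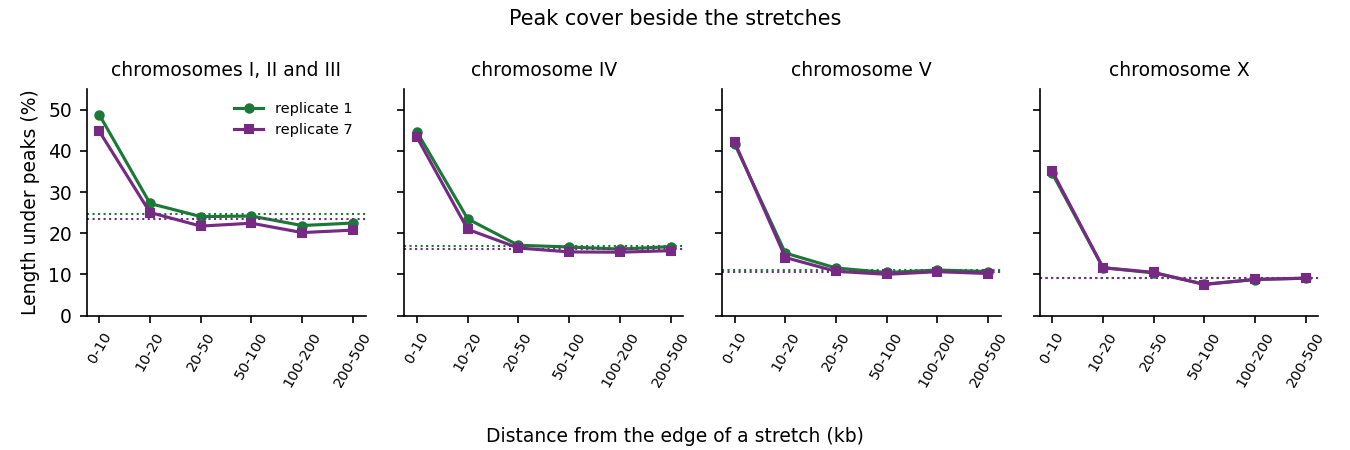
Percentage of length under peaks by distance from the edge of a stretch in kb, for replicate 1 (green circles) and replicate 7 (purple squares), in 4 groups of chromosomes, with the cover of the whole chromosomes as dotted lines. In each group the cover is highest within 10 kb, where the edge peaks lie, and lies much nearer the dotted lines from 20 kb on.

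The gap on the far side of a border interval was itself a stretch on 16.8% of sides on chromosome V, where 13.2% of all gaps were stretches, and on 12.7% of sides on chromosome II, where 5.84% were. On the X the shares were 14.9% and 14.9%. On chromosomes I, III and IV they were 5.56%, 8.70% and 10.5% of sides, and 2.71%, 1.90% and 7.62% of all gaps. The shares of sides on I and III rest on 4 of 72 and 4 of 46 sides, from 2 intervals on each chromosome.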

How the data were processed

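Peaks were taken from 2 lists, 1 per immunoprecipitation, that the authors deposited without pooling replicates. Coordinates are in WS190 per the file headers. Each peak carries a score that the authors deposited, of unstated meaning. Peak names carry MACS and the source column reads MA2C, per the files, so the program is not settled. BWA is named in the submitters' processing notes. Its version and the settings are not stated in those notes. The peak lists hold no counts, so the depth is unknown. Replicate 1 had 5973 peaks and replicate 7 had 6223, numbered without breaks.

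Peaks of both lists overlapping by at least 1 bp were joined, and gaps were measured between the joined intervals. Each chromosome was measured up to its last peak end. A score percentile is the rank of a score within its list as a percentage, ties sharing their mean rank, using the highest peak of an interval. Regions named are the 10 longest, the longest per chromosome, those at the threshold, the closest pairs, the largest runs, the gaps most shortened, and the borders of extreme score. The 2 isolated intervals, the broad intervals and the windows were picked once values were known. The members and lists were chosen with earlier results of these data known. Alternatives were other peak thresholds, minimum lengths, centres and each list alone. Python 3.11.15, numpy 2.4.6, pandas 2.3.3 and matplotlib 3.10.9 were used. On simulated data, 50 gap lists matched a base-by-base count with 0 differing.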

Additional observations from a re-analysis of the deposited data

How the results depend on the processing

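The number of stretches was 397 and lay between 410 and 423 in each list alone. It was 501 with the upper 50% of peaks by score, 442 without the lowest 20%, 435 with peaks found in both lists, 549 with a minimum of 40 kb and 109 with a minimum of 100 kb. Their total length of 35.8 Mb was 37.7 to 38.9 Mb in each list alone, 54.0 Mb with the upper 50%, 42.2 Mb without the lowest 20%, 40.8 Mb with peaks of both lists, 42.6 Mb at 40 kb and 16.1 Mb at 100 kb. A lower minimum can only add to the total length, and so can fewer peaks unless the outermost peak of a chromosome is dropped. The longest stretch was 547.2 to 549.6 kb in each list alone, 549.3 kb without the lowest 20% and with peaks of both lists, and 787.8 kb with the upper 50%. The share of stretch length on chromosome V (31.7%) was 30.9 to 31.6% in each list alone, 27.0% with the upper 50%, 29.8% without the lowest 20%, 30.9% with peaks of both lists, 30.2% at 40 kb and 35.7% at 100 kb. The share in arms, X included (61.5%), was 60.76 to 60.79% in each list alone, 58.1% with the upper 50%, 59.7% without the lowest 20%, 60.1% with peaks of both lists, 58.2% at 40 kb, 68.7% at 100 kb and 70.3% with the middle 40% as centre, which enlarges the arms. The cause of the other shifts was not tested. The share of borders present in both lists was 80.3% when the lists had to share 50% of the interval. Chromosome V had the highest share of its length in stretches in each of these settings except the upper 50% by score, where the X was higher. No paired analysis was possible because both immunoprecipitations belong to 1 group and no values of the inputs were used. Without counts, regions below the authors' threshold cannot be compared.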

Other observations

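The counterpart of the stretches is the span of each chromosome in which no gap reached 50 kb. On chromosome III the longest such span covered 3.04 Mb (3591739 to 6631612), with 36.5% under peaks in replicate 1 and 36.03% in replicate 7. It was 1.46 Mb on chromosome I (2573508 to 4029355), 1.23 Mb on chromosome II (10157484 to 11390721) and 0.92 Mb on chromosome IV (7312324 to 8231945). On the X it was 0.535 Mb (4818642 to 5354090), with 15.1% under peaks in both lists. On chromosome V it was 0.485 Mb (10658240 to 11142859), with 17.0% and 16.9%. These spans were chosen after their values were seen and include the peak intervals at their ends.

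Before the first peak of each chromosome lay between 0.435 kb (chromosome IV) and 43.8 kb (the X), so no left end would have been long enough to count as a stretch.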
